A study of Homo sapiens with 10 samples.

Results

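The comparison concerns untreated cells of 2 human hepatocarcinoma lines that differ in RB1. Huh7 is an established line from a human hepatocellular carcinoma, and shRb is the name that the labels give to the other line. The members were chosen by line and treatment, as the arrays of cells labelled with no treatment. They are 5 of the 10 arrays of the study, 3 of shRb (replicates 7, 8 and 9) and 2 of Huh7 (replicates 1 and 3). The other 5 arrays hold the same lines after 10 μM sorafenib for 9 h (2 of Huh7 and 3 of shRb), and they entered the comparison only through the shared estimate of the spread. Cells of both lines grew in DMEM with fetal calf serum, and no vehicle is given for the untreated cells. The labels describe the arrays of each untreated group as biological replicates. They do not say whether shRb was derived from Huh7, which RNA hairpin it carries, or whether it is 1 clone or a pool, and no control hairpin line was analysed here. Nor do they tell on which strip a sample was run, so the line and any batch cannot be told apart.

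RB1 encodes the retinoblastoma protein, a pocket protein that binds E2F transcription factors and holds back genes of DNA replication and mitosis until cyclin-dependent kinases phosphorylate it late in G1. RBL1 and RBL2 encode the related pocket proteins p107 and p130, which can take over part of this role. Loss of RB1 is a recurrent event in liver cancer, where it is associated with proliferation.

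The untreated lines differed in a small part of the transcriptome, with more genes higher in shRb than lower. Each array gave a log2 value for 53617 transcript clusters, which are sets of probes. Of these, 23866 were named by 1 gene symbol, 1852 by several and 27899 by none. At an adjusted p under 0.05 (limma, Benjamini-Hochberg over all clusters), 347 clusters were higher in shRb, 0.647% of those tested, and 199 were lower, 0.371%. No gene symbol was given to 100 of the higher and 71 of the lower clusters. A further condition of a difference over 2-fold left 142 higher and 68 lower clusters. With 1 cluster taken for each of 22354 named genes, 229 genes were higher (1.02%) and 120 were lower (0.537%), and the values of the lines did not overlap for any of these 349 genes, nor for 35.2% of all genes. The median log2 difference over all genes was 0.0052. The counts fell whenever an array was left out: to 95 higher and 42 lower clusters without Huh7 replicate 1, and to 101 and 49 without Huh7 replicate 3. Without shRb replicates 7, 8 and 9 in turn they were 168 and 83, 159 and 85, and 172 and 79. A pair of arrays of the same line differed over 2-fold in 32 to 54 genes, and a pair from different lines in 187 to 221. Pearson correlations over all clusters were 0.989 to 0.990 within a line and 0.986 to 0.987 between lines.

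RB1 itself was the gene with the largest fall after DLK1. Its log2 values were 8.18 and 7.99 in Huh7 and 5.56, 5.94 and 5.92 in shRb. All 3 arrays labelled shRb lay more than 2 log2 units below the lower Huh7 array. The difference was -2.28 (SE 0.214, 95% interval -2.75 to -1.80, adjusted p = 0.00103, limma), which left 20.7% of the Huh7 level on the array. It stayed past the threshold without any single untreated array, with an adjusted p of 0.0232 at most, but not with a replicate block (adjusted p = 0.0932). An array level also holds unspecific probe signal, so this percentage is not a measure of the protein.

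Among the 13 genes of the pocket proteins and E2F factors, E2F7 rose in shRb and RB1 was the only one that fell. E2F7, an atypical E2F that represses E2F target genes, had values of 5.87 and 5.74 in Huh7 and 6.69, 6.67 and 6.39 in shRb. The lines did not overlap, and the log2 difference was 0.78 (SE 0.134, adjusted p = 0.0291, limma). The adjusted p rose to as much as 0.243 when an array was left out and was 0.0809 with the 5 untreated arrays alone, so this call rests on the shared spread. The pocket protein genes did not rise past the threshold. RBL1 was at 7.56 and 7.63 in Huh7 and 7.28, 7.41 and 7.49 in shRb, with a 95% interval of the difference from -0.56 to 0.15. RBL2 was at 6.11 and 6.15 against 6.34, 6.49 and 6.45, with an interval from 0.02 to 0.57 and an adjusted p of 0.435 (limma). The activator E2F1 was at 6.77 and 6.76 in Huh7 and 6.89, 6.95 and 6.88 in shRb, a difference of 0.14 with an interval from -0.21 to 0.48. E2F2 and E2F3, the other activators, differed by 0.31 and -0.26 without passing the threshold. The repressors E2F4, E2F5 and E2F6, the atypical E2F8, and the dimerisation partners TFDP1 and TFDP2 had differences between -0.17 and 0.16. Thus 10 of the 13 genes had a 95% interval that lay within a 1.5-fold change in either direction, against 71.7% of all genes tested.

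**Figure D1:**
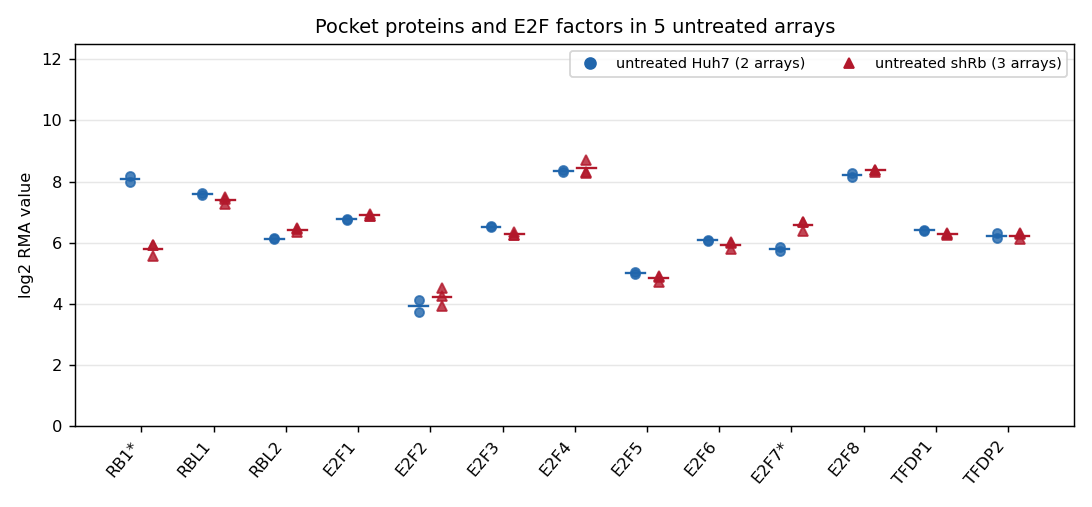
Log2 RMA value (vertical axis) of the 13 pocket protein and E2F genes in each untreated array, with Huh7 as circles, shRb as triangles, a line at each group mean and an asterisk for an adjusted p under 0.05. RB1 lies at 5.56 to 5.94 in shRb and 7.99 to 8.18 in Huh7, and E2F7 is the other marked gene.

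Genes listed as driven by E2F factors in DNA replication are described by their differences. Nothing is read from the absence of calls in a list of this size. Of 44 measured genes of DNA replication, none passed the threshold in either direction, against 1.02% of all genes higher and 0.537% lower. Their median log2 difference was 0.06 with a range from -0.40 to 0.67, and 34 of the 44 intervals (77.3%) lay within 1.5-fold. The largest difference was that of FEN1, the flap endonuclease that trims Okazaki fragments, at 6.93 and 6.49 in Huh7 and 7.51, 7.27 and 7.38 in shRb. The lines did not overlap for FEN1, but the difference of 0.67 (SE 0.180) had an adjusted p of 0.158 (limma). POLE, the catalytic subunit of DNA polymerase epsilon, differed by 0.43 (interval 0.17 to 0.68), and RRM2, a subunit of ribonucleotide reductase, by 0.28 (0.06 to 0.51). Another cluster of RRM2 differed by -0.016 (adjusted p = 0.987, limma). RFC3, a subunit of the clamp loader, and ORC1, of the origin recognition complex, had differences of -0.40 and -0.35. None of these 4 genes passed the threshold. The helicase genes MCM2, MCM6 and MCM7 had differences of -0.02, 0.01 and 0.02, and PCNA, the sliding clamp, of -0.14.

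Genes of mitosis had the highest share of narrow intervals among the lists. Of 41 measured, none passed the threshold, the median difference was -0.01, and 38 intervals (92.7%) lay within 1.5-fold. Beside 1.56% of all genes called, nothing is read from the absence of calls in the lists of this paragraph. NEK2, a centrosomal kinase, had the largest difference at -0.52 (interval -0.80 to -0.23, adjusted p = 0.119, limma). MKI67, the proliferation marker, was at 9.94 and 10.05 in Huh7 and 10.15, 10.33 and 10.12 in shRb. Its difference of 0.21 had an interval from -0.05 to 0.46. The 18 measured G1 cyclins, kinases and inhibitors also had no call, with a median of -0.04. CCNE1 and CCNE2, the E-type cyclins that are textbook E2F targets, each differed by 0.11, and CDKN2A, which encodes p16, by 0.19. Of 20 measured replication-dependent histone genes, 15 had a positive difference and none passed the threshold (median 0.21). Histone genes lie in families of near-identical sequence, and 32 listed ones had no cluster that names them alone.

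The promoters of this group were read from the RefSeq table (GRCh38.p14), as the 250 bases before the start of each gene, to show which members carry the letters of an E2F site. The letters TTTCCCGC, TTTCGCGC, TTTGCCGC and TTTGGCGC were searched on both strands. Of 35116 promoters, 2.79% held at least 1 of them, against 13 of the 40 replication genes with a promoter in the table (32.5%), 1 of 35 mitosis genes (2.86%) and 5 of 11 pocket protein and E2F genes (45.5%). The windows of RB1 and E2F7, the called members, held none. The promoters of E2F1 and of MCM6, chosen afterwards for their matches, are shown here with the matching letters in capitals.
E2F1, chr20:33686386-33686635, minus strand: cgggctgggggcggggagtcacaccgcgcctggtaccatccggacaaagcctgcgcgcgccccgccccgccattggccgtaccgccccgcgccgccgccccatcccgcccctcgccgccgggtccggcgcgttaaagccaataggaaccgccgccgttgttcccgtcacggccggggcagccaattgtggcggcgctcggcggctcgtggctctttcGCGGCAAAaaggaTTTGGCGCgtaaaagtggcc
MCM6, chr2:135876444-135876693, minus strand: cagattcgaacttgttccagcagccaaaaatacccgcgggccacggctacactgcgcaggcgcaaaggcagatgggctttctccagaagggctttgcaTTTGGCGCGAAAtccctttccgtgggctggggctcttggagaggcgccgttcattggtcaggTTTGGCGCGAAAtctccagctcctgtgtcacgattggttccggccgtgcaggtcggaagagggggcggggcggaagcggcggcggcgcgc
The E2F1 window held 2 matches and the MCM6 window 4, the latter as overlapping pairs on opposite strands. With these letters beside the transcript values, MCM6 differed by 0.01 between the lines (interval -0.22 to 0.23) and E2F1 by 0.14.

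Among the 32 gene lists, metallothioneins had the most members higher in shRb. These small proteins, rich in cysteine, hold zinc, copper and cadmium, and in liver cells the metal-sensing factor MTF1 is known to induce their genes. Of 15 measured genes, 9 rose, none fell and all 15 differences were positive, with a median of 1.21. The 9 genes are 60% of those measured, against 1.02% of all genes higher. MT1M was at 6.51 and 6.75 in Huh7 and 9.46, 9.22 and 9.38 in shRb, a log2 difference of 2.72 (SE 0.171, 6.61-fold, adjusted p = 8.09e-05, limma). MT1H was at 5.36 and 5.10 in Huh7 and 7.55, 7.68 and 7.80 in shRb, 5.45-fold higher. In both genes the shRb arrays lay more than 2 log2 units above every Huh7 array. MT1G, whose values were 7.31 and 7.59 in Huh7 and 9.60, 9.53 and 9.49 in shRb, was 4.25-fold higher. MT1F was 3.37-fold, MT1X 2.34-fold and MT1E 2.32-fold higher. MT2A, the most widely expressed member, rose by 0.73 (SE 0.118), from 7.33 and 7.48 to 8.09, 8.21 and 8.12.

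The largest difference in the family was that of MT1L, a transcribed pseudogene. Its values were 2.10 and 2.24 in Huh7, below the array medians of 3.41 to 3.42, and 5.88, 5.55 and 5.55 in shRb, above the upper quartiles of 5.25 to 5.29. It was the only named gene with every array of 1 line under the median and every array of the other above the upper quartile. The pseudogene MT1DP rose by 0.91. MT1JP and MT1CP differed by 1.28 and 0.85 without passing the threshold (adjusted p = 0.356 and 0.256, limma), with standard errors of 0.470 and 0.270 against a median of 0.142 over all genes. MT1B, MT1IP, MT3 and MT4 differed by 0.03 to 0.31 and none of these 4 genes passed the threshold. The calls of MT1L, MT1M, MT1H, MT1G, MT1F, MT1E and MT1X held without any single untreated array, while MT2A and MT1DP lost theirs without at least 1 (highest adjusted p 0.213 and 0.318). Metallothionein sequences are near-identical, so a cluster may hold signal of a neighbouring gene and the split among members is uncertain.

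**Figure D2:**
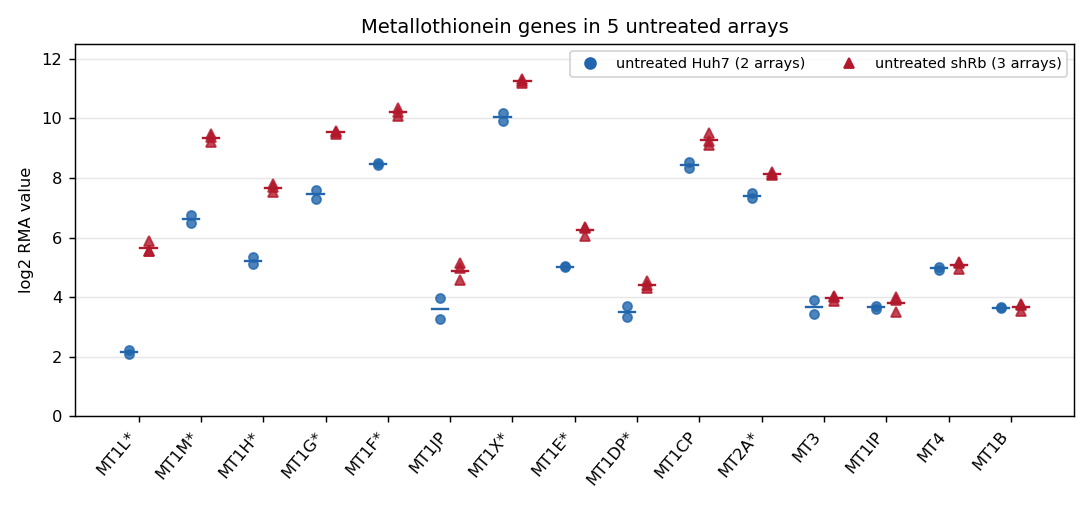
Log2 RMA value (vertical axis) of 15 metallothionein genes in each untreated array, ordered by difference, with Huh7 as circles, shRb as triangles, a line at each group mean and an asterisk for an adjusted p under 0.05. MT1L lies at 2.10 to 2.24 in Huh7 and 5.55 to 5.88 in shRb, and MT1B at the right end lies at 3.52 to 3.77 in both lines.

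Of 21 measured genes of zinc handling, the transporters and MTF1, none passed the threshold, beside 1.56% of all genes called, and nothing is read from a count of 0 in a list of this size. MTF1 differed by 0.12, and SLC30A1, an exporter that MTF1 also induces, by -0.05. The largest differences were those of the importers SLC39A10 (-0.72) and SLC39A6 (-0.62). MTF1 recognises metal response elements, whose core letters TGCACNC and TGCGCNC were searched on both strands in the 250-base promoters. Of the 15 metallothioneins, 5 had a promoter in the table, and each held at least 3 matches, as did 1.58% of all promoters. The promoters of the called genes MT1H, MT1X and MT2A, and of MT1B, which did not differ past the threshold, are shown with the matching letters in capitals (RefSeq, GRCh38.p14).
MT1H, chr16:56669564-56669813, plus strand: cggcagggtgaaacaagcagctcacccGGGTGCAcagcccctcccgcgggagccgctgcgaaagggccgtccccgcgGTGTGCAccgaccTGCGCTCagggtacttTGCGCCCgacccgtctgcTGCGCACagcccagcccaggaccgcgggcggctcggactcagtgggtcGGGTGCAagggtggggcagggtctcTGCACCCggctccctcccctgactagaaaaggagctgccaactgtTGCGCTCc
MT1X, chr16:56682220-56682469, plus strand: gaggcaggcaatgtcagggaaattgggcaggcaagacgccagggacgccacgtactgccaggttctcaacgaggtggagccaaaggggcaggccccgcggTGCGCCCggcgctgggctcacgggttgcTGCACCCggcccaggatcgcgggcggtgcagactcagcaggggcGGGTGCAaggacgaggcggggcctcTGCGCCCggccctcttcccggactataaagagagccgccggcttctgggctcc
MT2A, chr16:56608334-56608583, plus strand: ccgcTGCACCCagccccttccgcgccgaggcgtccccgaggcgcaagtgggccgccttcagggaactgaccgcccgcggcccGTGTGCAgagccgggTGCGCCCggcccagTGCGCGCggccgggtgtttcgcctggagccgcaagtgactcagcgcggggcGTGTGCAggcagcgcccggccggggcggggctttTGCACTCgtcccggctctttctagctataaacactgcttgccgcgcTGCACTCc
MT1B, chr16:56651636-56651885, plus strand: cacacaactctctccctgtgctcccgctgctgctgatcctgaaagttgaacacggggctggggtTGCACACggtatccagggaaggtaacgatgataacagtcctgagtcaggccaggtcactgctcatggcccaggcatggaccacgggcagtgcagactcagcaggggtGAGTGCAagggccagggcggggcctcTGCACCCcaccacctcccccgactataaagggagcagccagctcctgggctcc
The window of MT1H held 8 matches, that of MT2A 7, that of MT1X 4 and that of MT1B 3. Their log2 differences were 2.45, 0.73, 1.23 and 0.03 in the same order.

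Genes of hepatocyte identity gave few calls, most of them among complement and clotting genes. Of 15 measured liver-enriched transcription factors and 31 plasma protein and apolipoprotein genes, none passed the threshold, with medians of -0.05 and 0.09. Beside 1.56% of all genes called, nothing is read from the absence of calls in lists of this size. ALB differed by 0.38, APOB by 0.24, TTR by -0.20 and SERPINA1 by 0.18. Of 28 coagulation and complement genes, 4 rose and 1 fell (17.9%, against 1.56% of all genes called in either direction). C3, the central complement component, was at 8.56 and 8.67 in Huh7 and 10.40, 10.32 and 10.18 in shRb, a difference of 1.69 (SE 0.120, 3.22-fold, adjusted p = 0.000154, limma). F11, coagulation factor XI, was at 3.96 and 4.01 against 5.55, 5.54 and 5.48, 2.90-fold higher. C4BPA, a chain of the C4b-binding protein that restrains complement, was at 4.13 and 4.04 against 5.44, 5.48 and 5.62, 2.69-fold higher. CFI, the protease that inactivates C3b, rose 2.09-fold. CFB, which forms the alternative pathway convertase, fell from 6.43 and 6.14 to 5.73, 5.53 and 5.56. The calls of C3, F11 and C4BPA held without any single untreated array, those of CFI and CFB did not (highest adjusted p 0.170 and 0.332). Of 40 drug metabolism and transport genes, only SLCO1B3, an uptake carrier of bile acids and drugs, passed the threshold (2.5%, against 1.56% of all genes). It was at 2.89 and 3.03 in Huh7, below the array medians of 3.41 to 3.42, and 3.99, 3.97 and 3.95 in shRb. Another cluster of SLCO1B3 differed by 0.43 without a call (adjusted p = 0.287, limma). The SLCO1B3 call was lost without at least 1 untreated array, and nothing is read from 1 call in a list of this size.

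Oncofetal genes held the largest fall of all named genes. DLK1, a Notch-like membrane protein of the fetal liver, was at 8.47 and 8.66 in Huh7 and 5.46, 4.88 and 5.46 in shRb. The difference of -3.30 (SE 0.190, adjusted p = 4.57e-05, limma) corresponded to a 9.83-fold lower level. AFP, the fetal plasma protein used as a tumour marker, fell from 10.97 and 11.03 to 10.17, 10.41 and 10.17. The cancer-testis gene SSX1 fell from 3.09 and 3.13 to 1.52, 1.61 and 1.95. All SSX1 values lay below the array medians of 3.4 to 3.42, where the signal may be unspecific. EPCAM, an adhesion molecule of liver progenitors, moved the other way, from 5.53 and 5.60 to 6.36, 6.32 and 6.21. These 4 calls of 21 genes compare with 1.56% of all genes. The other 17 oncofetal genes did not pass the threshold, among them GPC3 (0.17), KRT19 (-0.05), SOX9 (0.02) and IGF2BP1 (-0.08). The DLK1 call held without any single untreated array, while those of AFP, SSX1 and EPCAM did not (highest adjusted p 0.154, 0.105 and 0.131).

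PAGE1, another cancer-testis gene, had the largest rise of all named genes. It was at 3.82 and 3.57 in Huh7 and 7.83, 7.23 and 7.62 in shRb, a difference of 3.87 (SE 0.206, 14.6-fold, adjusted p = 2.82e-05, limma). Apart from metallothioneins, the next was OSBPL1A, an oxysterol-binding protein, which was at 4.67 and 4.47 against 6.80, 6.90 and 6.81. CTSE, the aspartic protease cathepsin E, was at 5.38 and 5.13 against 7.34, 7.06 and 7.41. Both were over 4-fold higher. The list continued with CAVIN2, a coat protein of caveolae (3.92-fold), FJX1 (3.88-fold), PAQR5, a membrane progesterone receptor (3.89-fold), and TM4SF4 (3.83-fold). EMB, the partner of monocarboxylate transporters, was 3.58-fold higher. LSR, a lipoprotein receptor that also builds tricellular junctions, was at 6.90 and 7.11 in Huh7 and 8.82, 8.77 and 8.84 in shRb, 3.49-fold higher. LINC02381, a long non-coding RNA, was 3.43-fold higher. Of the 15 largest rises, UBD alone lost its call when an array was left out (highest adjusted p 0.0641).

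The 15 largest falls, led by DLK1 and RB1, included secreted proteins and protease inhibitors. SPP1, osteopontin, was at 7.78 and 7.57 in Huh7 and 5.32, 5.56 and 5.59 in shRb, 4.55-fold lower. TIMP4 and TIMP3, inhibitors of metalloproteases, were 3.94-fold and 2.85-fold lower, and MEP1A, the metalloprotease meprin alpha, fell from 8.37 and 8.21 to 6.26, 6.30 and 6.31. TIMP3 was at 6.91 and 7.48 against 5.65, 5.43 and 5.97, the widest spread of the 3 genes. CRISP3, a secreted cysteine-rich protein, was 4.29-fold lower and BRINP3 4.55-fold lower. RFPL4B and the tetraspanin TSPAN18 were 4.28-fold and 4.17-fold lower. The remaining members were PIK3C2G, a class II phosphoinositide kinase (3.50-fold), SLC5A11, a sodium-coupled inositol carrier (3.43-fold), RAB27B, a GTPase of secretory vesicles (3.09-fold), LIPH, a phospholipase (3.04-fold), and RASSF9 (3.01-fold). Calls of RASSF9, TIMP3, RAB27B and LIPH were lost without at least 1 array, with highest adjusted p-values of 0.257, 0.0937, 0.0624 and 0.0551.

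Some inflammatory genes rose. Of 22 measured NF-kB targets, 4 rose and none fell (18.2%, against 1.02% of all genes). CCL20, a chemokine for CCR6-bearing lymphocytes, was at 8.83 and 8.64 in Huh7 and 9.77, 9.78 and 9.72 in shRb, 2.02-fold higher. CXCL8, the neutrophil chemokine, was at 6.87 and 7.06 against 7.70, 7.85 and 8.01. ICAM1, the leukocyte adhesion molecule, was at 8.81 and 8.83 against 9.67, 9.65 and 9.74, a difference of 0.86 (SE 0.0955, adjusted p = 0.00293, limma), and TNFAIP3, a negative regulator of the pathway, at 5.91 and 5.95 against 6.94, 6.56 and 6.91. Of these 4 calls, that of ICAM1 alone held without any single untreated array. IL6, SAA1, CRP and CCL2 had differences between -0.19 and 0.10 without a call. Of 36 interferon and antigen presentation genes, 2 rose (5.56%, against 1.02% of all genes) and none fell. OAS3, which makes the 2-5A activator of RNase L, was at 3.70 and 3.48 against 5.46, 5.06 and 4.78. UBD, the ubiquitin-like modifier FAT10, was at 4.14 and 5.03 against 6.45, 6.53 and 6.67. The calls of OAS3 and UBD were lost without at least 1 untreated array. After sorafenib UBD differed by -0.96 without passing the threshold. The interferon-induced genes ISG15, IFIT1, MX1 and IFI44L lay between -0.12 and 0.06, and HLA-B and B2M at 0.22 and -0.11.

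Genes of the cytoskeleton and of mechanical signalling showed a few rises. Of 22 measured YAP/TEAD targets, ANKRD1 and IGFBP3 rose and none fell (9.09% higher, against 1.02% of all genes). ANKRD1, a cardiac-type ankyrin repeat protein that responds to stretch, was at 6.59 and 6.63 in Huh7 and 8.29, 8.22 and 8.38 in shRb, a difference of 1.69 (SE 0.116, 3.22-fold, adjusted p = 0.000125, limma). The canonical targets CCN1 and CCN2 differed by 0.56 and -0.32 and did not pass the threshold. Of 29 epithelial and mesenchymal genes, 3 rose (10.3%). ITGA5, the fibronectin receptor subunit, was at 5.44 and 5.60 against 6.66, 6.44 and 6.50. VIM, vimentin, was at 7.93 and 8.08 against 8.67, 8.52 and 8.57, and ZEB2, a repressor of E-cadherin, at 4.19 and 4.17 against 5.02, 4.88 and 4.95. CDH1, which encodes E-cadherin, differed by 0.04, CDH2 by -0.17 and FN1 by 0.10. Only ANKRD1 among these called genes held without any single untreated array. FST, a binder of activin, was the only call of 18 TGF-beta and BMP targets (0.73), DUSP5, an ERK phosphatase, the only one of 19 ERK output genes (0.65), and 17 Wnt targets had none. Each of these 3 lists held at most 1 called gene, and nothing is read from such counts.

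Metabolic genes gave isolated calls. Of 24 measured cholesterol and fatty acid synthesis genes, 22 had a positive difference (91.7%, against 51.1% of all genes), 2 rose past the threshold (8.33%, against 1.02%) and none fell, with a median of 0.33 beside 0.0052 over all genes. HMGCS1, which makes HMG-CoA, was at 9.18 and 9.13 in Huh7 and 9.96, 10.02 and 9.95 in shRb, 1.77-fold higher (adjusted p = 0.0143, limma). LSS, lanosterol synthase, was at 7.46 and 7.36 against 8.08, 8.08 and 7.93. Both calls were lost when an array was left out. FASN, fatty acid synthase, differed by 0.78 (interval 0.36 to 1.20, adjusted p = 0.114, limma). Among 29 glycolysis and hypoxia genes, SLC2A1 fell and the others did not pass. SLC2A1, the glucose transporter GLUT1, was at 7.86 and 7.81 against 6.92, 6.62 and 6.79, 2.08-fold lower. Of 15 measured gluconeogenesis and urea cycle genes, 2 fell and none rose (13.3%, against 1.56% of all genes called). These were TDO2 and HPD, which break down tryptophan and tyrosine, and they fell by 1.06 and 0.63 on the log2 scale. Of 25 NRF2 targets, only GPX2, a glutathione peroxidase, rose (0.84), and NQO1, HMOX1 and GCLM lay between -0.14 and 0.15. Of 28 integrated stress response genes, ATF3 and PHGDH rose (0.94 and 0.56) and STC2 fell (-1.20). These calls are 10.7% of that list, against 1.56% of all genes. Among 23 p53 targets, TP53INP1 rose (0.77), and CDKN1A and MDM2 differed by 0.45 and -0.46 without a call. The calls of SLC2A1, TDO2, HPD, GPX2, ATF3, PHGDH, STC2 and TP53INP1 were also lost without at least 1 untreated array. Those of HPD, GPX2, PHGDH and TP53INP1 were lost whichever array was left out. The glycolysis, NRF2 and p53 lists each held 1 called gene, and nothing is read from such counts beside 1.56% of all genes called.

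**Figure D3:**
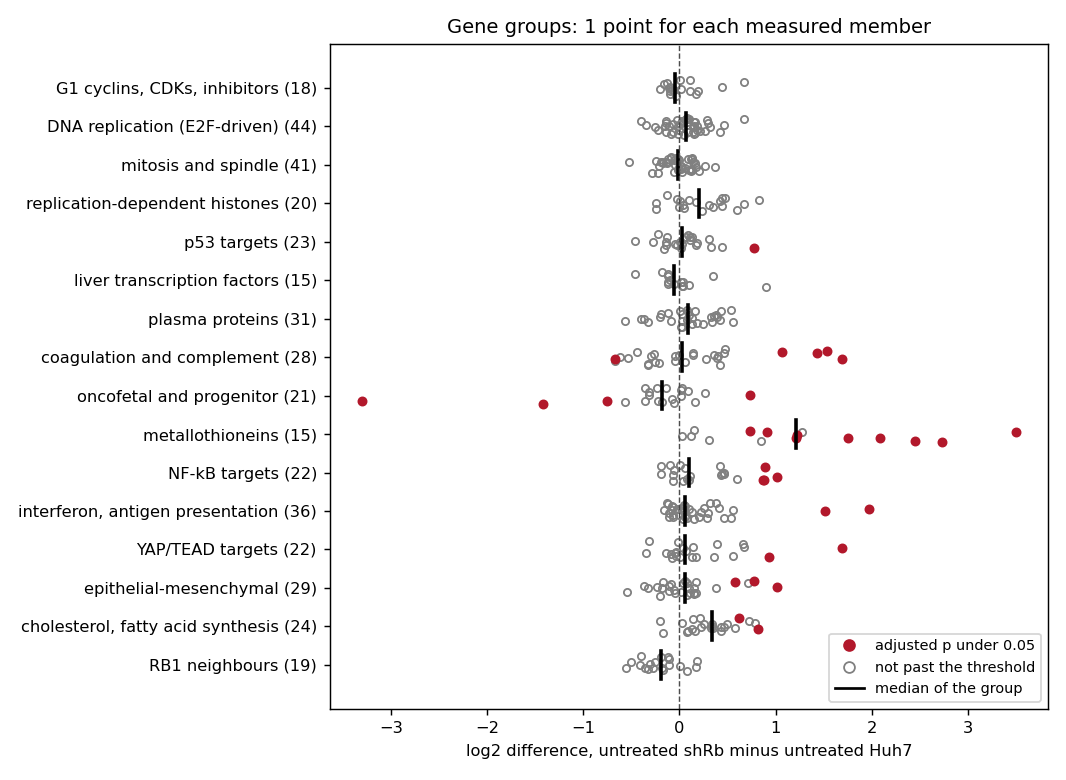
Log2 difference, untreated shRb minus untreated Huh7 (horizontal axis), of each measured member of 16 gene groups, with filled points for an adjusted p under 0.05, a bar at the median and the number measured in parentheses. The replication and mitosis groups lie around 0 with no filled point, and 9 of 15 metallothioneins are filled, up to 3.50.

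Markers of other cell types were measured in both lines. The mean level of 11 measured fibroblast markers was 3.70 to 3.76 in shRb and 3.76 and 3.87 in Huh7, and that of 9 endothelial markers was 3.06 to 3.23 and 3.15 to 3.21. For 11 leukocyte markers it was 4.15 to 4.23 in shRb and 4.35 and 4.36 in Huh7, which did not overlap, and for 11 cholangiocyte and other epithelial markers 4.33 to 4.40 and 4.35 to 4.52. PTPRC, which defines leukocytes, was at a mean of 1.71 in Huh7 and 1.60 in shRb, below the array medians, while LYZ (10.99 and 11.07) and CD68 (8.17 and 7.71) of the same list, and VIL1 of the epithelial list (8.97 and 9.25), were above the upper quartiles in both lines. Members past the threshold were LUM (-0.73), ITGAM (-0.91) and SPP1. RNA came from whole cultures, so a change in every cell and a change in the share of cells cannot be told apart.

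The line difference was also measured in the 5 sorafenib arrays, whose levels did not enter the untreated difference but whose spread entered its test. Most genes called in untreated cells had the same sign there. In the treated arrays 692 clusters were higher in shRb (1.29%) and 531 were lower (0.99%). Of the 229 genes higher in untreated shRb, 205 (89.5%) had the same sign after sorafenib and 122 (53.3%) passed the threshold in that direction, while 3 passed it in the other. Of the 120 lower genes, 115 (95.8%) had the same sign, 80 (66.7%) passed and 1 passed in the other direction. The median log2 difference of the higher genes was 0.88 in untreated and 0.67 in treated cells, and that of the lower genes -0.79 and -0.70. Among clusters without a call in untreated cells, 55.9% of the positive and 55.5% of the negative ones kept their sign. RB1 differed by -2.33 in treated cells, DLK1 by -3.50, PAGE1 by 3.19, MT1L by 3.43 and C3 by 1.29. E2F7 differed by 0.24 after sorafenib (adjusted p = 0.494, limma), and CXCL8, ICAM1, VIM and DUSP5, all called in untreated cells, by -0.15, 0.19, -0.04 and 0.02. A batch that went with the line in both treatments would be shared by these arrays and was not tested.

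**Figure D4:**
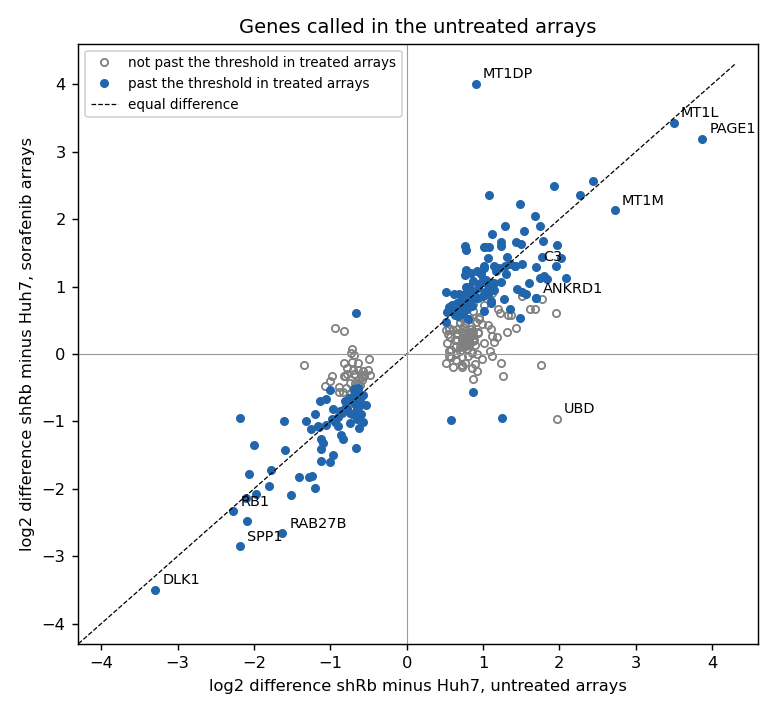
Log2 difference shRb minus Huh7 in the untreated arrays (horizontal axis) and in the sorafenib arrays (vertical axis) for the 349 genes called in untreated cells, filled where the treated difference also had an adjusted p under 0.05. Most points lie at the lower left and the upper right, with RB1 at -2.28 and -2.33, while UBD lies at 1.97 and -0.96.

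MicroRNA genes passed the threshold in 3 cases, none of them among the 23 measured microRNA genes listed for the liver, the cell cycle and p53. MIR4521 fell from 3.65 and 3.98 in Huh7 to 2.39, 2.18 and 2.81 in shRb, a difference of -1.35 (SE 0.181, adjusted p = 0.00769, limma). MIR4710 fell from 4.80 and 4.70 to 3.84, 3.99 and 3.95, and MIR3939 rose from 6.18 and 6.07 to 6.73, 6.85 and 6.91. The lines did not overlap for any of these genes, but neither did they for any of the 349 called genes or for 35.2% of all genes. Each microRNA call was lost without at least 1 array. The share called of all measured microRNA genes was not counted. Beside 1.56% of all genes called, nothing is read from these 3 calls. The mature sequences (RefSeq, GRCh38.p14) are shown with the seed, bases 2 to 8, in capitals, since the seed is what pairs with target transcripts.
hsa-miR-4521, chr17:8186948-8186969, plus strand: gCUAAGGAaguccugugcucag
hsa-miR-4710, chr14:104677723-104677740, minus strand: gGGUGAGGgcaggugguu
hsa-miR-3939, chr6:166997830-166997851, minus strand: uACGCGCAgaccacaggauguc
The 3 seeds are all different. The array labels total RNA, so signal of the precursor, a host transcript and the mature form cannot be told apart. MIR122, the main microRNA gene of the liver, differed by -0.23, and MIR34A, a p53 target, by 0.16.

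The share of genes called differed among chromosomes, from 0.699% to 2.93%, against 1.56% of all genes. Chromosome 10 held 25 higher genes and none lower of 853 measured (2.93% called), among them VCL and HABP2. Chromosome 7 held 3 higher and 13 lower genes, and chromosome 12 held 8 and 13. Chromosomes 4 (17 higher and 8 lower, 2.92%), 16 (13 and 12, 2.82%) and 18 (7 and 2, 2.66%) had like shares with calls in both directions. The 13 higher genes of chromosome 16 include the 9 called metallothioneins, whose near-identical sequences may share signal. The shifts were wider than these calls. Among genes brighter than the upper quartile of all clusters, a filter chosen after seeing the data, the median log2 difference was 0.20 over 334 genes of chromosome 10, where 84.4% of the differences were positive. It was -0.21 over 150 genes of chromosome 13, which carries RB1, where 16.7% were positive, and -0.13 and -0.14 on chromosomes 6 and 7. On chromosome 16 it was -0.107, with 32.9% positive. Each shRb array gave a like value, 0.18, 0.24 and 0.19 on chromosome 10 and -0.25, -0.18 and -0.21 on chromosome 13. Huh7 replicate 3 differed from replicate 1 by -0.04 and -0.03 there. In the sorafenib arrays the medians were 0.18 on chromosome 10 and -0.15 on chromosome 13. Without the filter, over all measured genes, the untreated medians were smaller. They were 0.0902 on chromosome 10, -0.0408 on chromosome 13, and -0.0334 and -0.0444 on chromosomes 6 and 7. Genes of a chromosome are not independent of each other, and no test was made.

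The neighbours of RB1 in band 13q14 were measured to show whether they fell with it. Of 19 measured, 15 had a negative difference (78.9%), against 48.9% of all genes with no positive difference. None passed the threshold, and the median was -0.19. Positive differences made up 21.1% of this list, which was not filtered by brightness, and 16.7% of the brighter genes of chromosome 13. Negative ones were thus not limited to these neighbours, but the 2 shares are of unlike sets. Over all measured genes of chromosome 13 the median was -0.0408. Whether the neighbours differed from the rest of the chromosome was not tested. In the sorafenib arrays the median of the list was -0.06. RCBTB2, the gene next to RB1 on 1 side, was at 5.15 and 5.17 in Huh7 and 4.41, 4.69 and 4.71 in shRb, a difference of -0.56 (interval -0.88 to -0.24, adjusted p = 0.142, limma). ITM2B, on the other side, was at 10.39 and 10.46 against 10.30, 10.37 and 10.27. LPAR6, which lies inside an intron of RB1, differed by -0.36 (interval -0.71 to -0.01). The difference of RB1, -2.28, was larger than that of each neighbour.

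**Figure D5:**
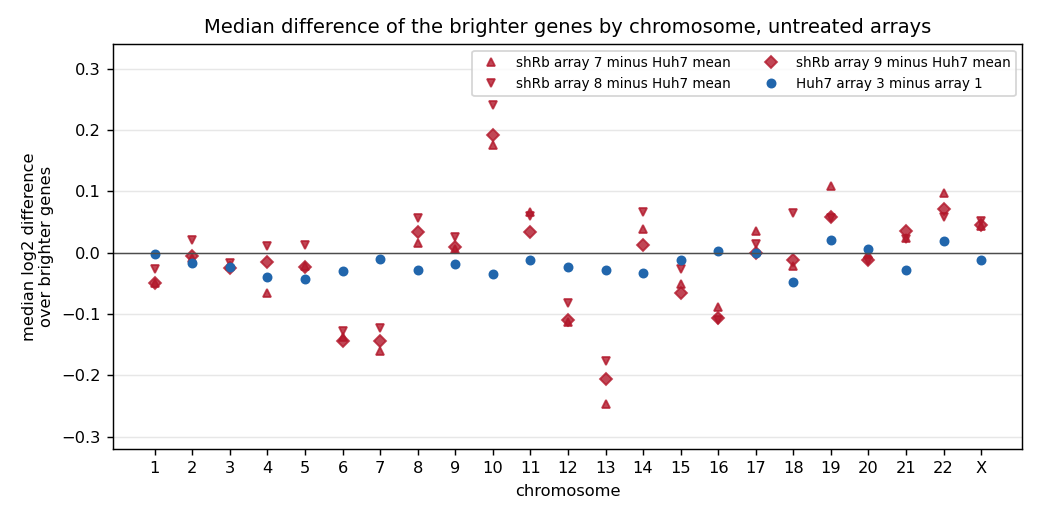
Median log2 difference over the brighter genes of each chromosome (vertical axis), for each untreated shRb array against the Huh7 mean and for Huh7 replicate 3 against replicate 1. The 3 shRb arrays lie together at 0.18 to 0.24 on chromosome 10 and at -0.25 to -0.18 on chromosome 13, while the Huh7 pair stays near 0.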

How the data were processed

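RNA of 10 samples was hybridised to Affymetrix whole-transcript (HuGene ST) arrays, as single-channel data. The authors normalised them with the Expression Console by RMA-sketch, and the deposited values are log2 levels for 53617 transcript clusters, background-corrected and with equalised distributions. Software version and genome build are not given in the sources used here. RMA equalises distributions, so a difference that most genes share would not be seen, and the number of arrays limits the precision.

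A table of the probes named 23866 clusters by 1 symbol, 1852 by several and left 27899 unnamed. Each gene took its brightest cluster in untreated cells. Groups came from the labels. A model of 4 group means over all 10 arrays was fitted with limma 3.58.1 in R 4.3.3 (6 residual degrees of freedom, against 3 for the 5 untreated arrays alone), with Benjamini-Hochberg adjustment over all clusters and a threshold of 0.05. Intervals are 95% intervals of that fit. The fit was tested on simulated data. P-values measure the spread between the arrays taken as replicates. The descriptions call both sorafenib-treated Huh7 arrays the second replicate. These arrays were used as separate replicates and entered the shared spread. Whether they come from separate cultures was not tested, and if they do not, the shared spread could be too small.

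Named genes were RB1 and its list, the 15 largest called differences each way without overlap, up to 6 members of each list by smallest p, all metallothioneins, called markers of other cells, called microRNA genes, the neighbours of RB1, and GAPDH and ACTB, which differed by -0.02 and -0.07. Other members of the lists and other genes were picked as examples after their values were seen. The members and lists were chosen with earlier results of these data known. Promoters were searched 250 bases upstream, without the transcribed bases. Alternatives were a trended and robust variance, the 5 untreated arrays alone, brighter clusters, repeated quantile normalisation, median centring, clusters with 1 symbol, the methods' t-test, a replicate block, limma's treat and leaving out each array.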

Additional observations from a re-analysis of the deposited data

Results flagged for a closer look

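Of the named genes, 4 had a line difference that itself differed between untreated and sorafenib-treated cells (interaction in limma, adjusted over all clusters). MT1B differed by 0.03 in untreated and 3.74 in treated cells, so that the interaction was 3.72 (adjusted p = 0.00328). The pseudogene MT1DP differed by 0.91 and 4.01, an interaction of 3.11 (adjusted p = 0.00332). MYOF, a membrane repair protein of the YAP/TEAD group, differed by -0.35 and -2.07, an interaction of -1.73 (adjusted p = 0.00717). UBD differed by 1.97 and -0.96, an interaction of -2.93 (adjusted p = 0.0385). The groups held 2 or 3 arrays, too few to look for single arrays that stand apart.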

How the results depend on the processing

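The direction of RB1 held under each alternative run. Of the 347 higher and 199 lower clusters, the 5 untreated arrays alone called 187 and 92. The methods' t-test gave 2940 and 3058 at its unadjusted threshold, but 12 and 1 after Benjamini-Hochberg (11 and 0 of them over 2-fold; smallest adjusted p 0.027), where RB1, at -2.28, had an adjusted p of 0.18; limma gave 5465 clusters at an unadjusted p under 0.05. A fit of the clusters with 1 symbol called 413 higher and 295 lower, against 242 and 122 such clusters in the main fit. Of these, 42 were lower over 2-fold, a count that leaves out clusters with no or several symbols. With limma's treat against a log2 difference of 1, 21 were higher and 12 lower. Leaving out 1 array gave 95 to 172 higher and 42 to 85 lower clusters, 92 to 127 and 39 to 65 over 2-fold, and an RB1 difference of -2.37 to -2.15. With Huh7 at 1 array, that array was assumed to vary like the other groups. The titles number no replicates alike across the lines, but the descriptions give them ordinals. A replicate block on these ordinals called 11 higher and 2 lower clusters, all over 2-fold, with RB1 at -2.33 (adjusted p = 0.0932). That fit used the 5 untreated arrays, where shRb replicate 9 has no like-numbered Huh7 array. It left fewer residual degrees of freedom than the 3 without a block, so the effects of the block and of this loss cannot be told apart. Deviations of like-numbered arrays correlated at 0.0075 and 0.0626. The deviations of 2 Huh7 arrays mirror each other, so these values cannot decide whether the ordinals are a pairing. The main fit did not use them as a pairing. Of 72 called named genes, 33 kept their call without any 1 untreated array, and 50 on the 5 untreated arrays alone. They lost 35 calls without Huh7 replicate 1, 35 without replicate 3, and 24, 24 and 21 without shRb replicates 7, 8 and 9. No called named gene changed sign, while 9 uncalled ones did under at least 1 alternative, so the sign of an uncalled difference is a description only. Trended variance, brighter clusters, repeated quantile normalisation and median centring kept each count of clusters within 1.5 times.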

Other observations

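Several further called genes, chosen after their values were seen, belong to groups that the lists did not hold. The first 4 were picked as higher in untreated shRb and not past the threshold after sorafenib, so they stand for no group. VCL, vinculin, was at 8.57 and 8.52 in Huh7 and 9.67, 9.68 and 9.65 in shRb (2.18-fold, adjusted p = 0.00173, limma), and differed by 0.27 in treated cells. TGFB1I1, a focal adhesion adaptor, was 3.38-fold higher and differed by -0.17 in treated cells, and CAVIN1, a caveolar coat protein like CAVIN2, was 2.17-fold higher and differed by -0.03. MYH9, non-muscle myosin heavy chain, was 1.56-fold higher and differed by 0.01. The difference between the treatments passed the threshold for CAVIN1 (interaction -1.15, adjusted p = 0.0411, limma) and not for VCL, TGFB1I1 or MYH9 (adjusted p = 0.174, 0.0665 and 0.294).

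Other genes were picked for their functions, without a list. SLFN11, a factor that acts on stalled replication forks, was at 4.97 and 4.89 in Huh7 and 6.63, 6.70 and 6.68 in shRb, 3.35-fold higher, and differed by 1.90 in treated cells. FABP1, the liver fatty acid-binding protein, was 2.48-fold higher and HSD17B2, a steroid dehydrogenase, 2.79-fold. MICB, a ligand of the NKG2D receptor, was 2.46-fold higher and ULBP3, another ligand, 2.69-fold, though ULBP3 did not pass the threshold in treated cells. The germline gene MAGEB2 was 2.22-fold higher, while PRAME and GTSF1 were 1.73-fold and 1.83-fold lower.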
